A study of Sus scrofa with 6 samples.

Results

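Expression of 6 genes that belong to heat-producing routes of skeletal muscle was examined in a back muscle, the longissimus dorsi (LD), of Laiwu pigs. The genes were the uncoupling proteins UCP2 and UCP3, the sarcoplasmic pump peptides SLN and PLN, the mitochondrial creatine kinase CKMT2 and the deiodinase DIO2. They were chosen by symbol, and the FPKM values (fragments scaled to transcript length and to the size of the library) of all transcripts of a gene were summed. Of the 6 genes, 5 had transcripts under their symbol, out of 31908 Ensembl genes in the table. PLN had 0 transcripts by this rule and was not analysed here. All 5 genes were among the 12836 protein-coding genes with a mean of at least 0.1 FPKM that were tested. The S-H group held 3 pigs with high intramuscular fat (IMF) content, LW63, LW70 and LW119, and the S-L group held 3 pigs with low IMF content, LW82, LW88 and LW90. All 6 were castrated males of the Laiwu breed that had been picked for their IMF content, and the sources used here give no age. Each pig gave 1 strand-specific library of total RNA without ribosomal RNA, so a pig was 1 replicate. Of 12 skeletal muscle markers 7 were in the table, led by TNNT3, DES and CKM, and their summed level was 8746 to 13301 FPKM over the pigs.

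In mammals with brown fat, UCP1 lets protons return across the inner mitochondrial membrane without making ATP, which releases heat. Pigs carry a disrupted UCP1 gene, and their other heat-producing routes are therefore of interest. In muscle, the SERCA pumps return calcium to the sarcoplasmic reticulum at the cost of ATP, and sarcolipin (SLN) and phospholamban (PLN) are small membrane peptides that bind them. Sarcolipin allows ATP to be spent with less calcium moved, and phospholamban lowers the affinity of the pump for calcium. Mitochondrial creatine kinase (CKMT2) passes phosphate from ATP to creatine, and repeated use of that phosphate can also dissipate energy. DIO2 converts the prohormone T4 to T3, the active thyroid hormone, which raises energy use in many tissues. UCP1 was not analysed here.

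Expression was high for SLN, CKMT2 and UCP3 and low for UCP2 and DIO2. FPKM is a value per length, so these levels can be set side by side between genes. By mean FPKM over the 6 pigs, CKMT2 was number 134, SLN number 135 and UCP3 number 408 of the 12836 tested genes, and DIO2 was number 8834 and UCP2 number 9722. The levels of SLN and CKMT2 overlapped over the pigs, as did those of DIO2 and UCP2, while every level of SLN (220.0 to 303.7 FPKM) was above every level of UCP3 (35.5 to 139.4 FPKM). The lowest UCP3 level was in turn far above the highest level of DIO2 (2.69 FPKM) and of UCP2 (2.13 FPKM).

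None of the 5 genes passed the thresholds between the groups (0 of 5 genes, against 1.36% of all tested genes, limma). A gene counted as passing with an unadjusted limma p below 0.01 and a log2 fold change of 1 or more in size. These cutoffs are the study's, but the study applied them to another test, so the calls are not those of the study. The S-H and S-L values overlapped for all 5 genes, whereas 14.8% of all tested genes had no overlap between the groups. The unadjusted limma p was below 0.05 for 0 of the 5 genes and for 8.17% of all tested genes. Across all genes the median log2 fold change (S-H minus S-L) was 0.21, so that a gene with a value of 0 lay slightly below the median. No gene in the whole table reached an adjusted p below 0.05 in limma (0 of 12836, while 1049 genes had an unadjusted p below 0.05). The lowest adjusted p was 0.0779.

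**Figure D1:**
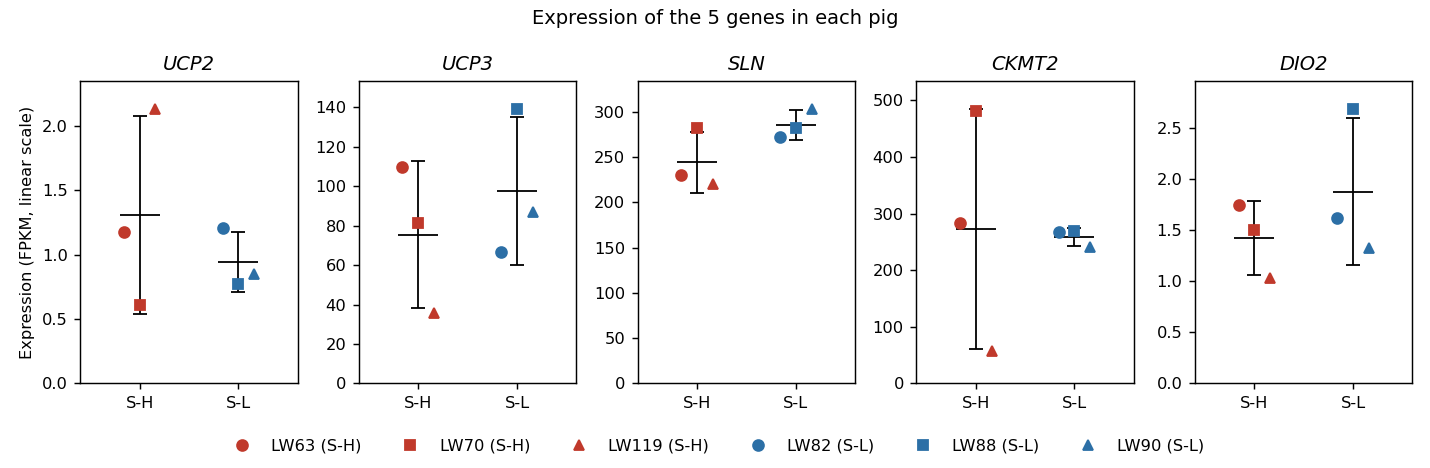
FPKM (linear scale from 0) of UCP2, UCP3, SLN, CKMT2 and DIO2 in each pig, by group, with 1 point per pig and a bar with whiskers for the group mean and SD of 3 pigs. LW119 (red triangle) was the lowest pig for UCP3, SLN, CKMT2 and DIO2 and the highest for UCP2, and the groups overlapped in each panel.

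UCP3 is the uncoupling protein of skeletal muscle, a carrier of the inner mitochondrial membrane linked to fatty acid handling. In the S-H pigs its level was 109.6 FPKM in LW63, 81.2 in LW70 and 35.5 in LW119. In the S-L pigs it was 66.6 FPKM in LW82, 139.4 in LW88 and 86.8 in LW90. The highest and the lowest pig therefore stood in different groups, with the other 4 pigs between them in mixed order. The means in FPKM were 75.5 ± 37.4 (SD, n = 3) in the S-H pigs and 97.6 ± 37.6 (SD, n = 3) in the S-L pigs. The log2 fold change was −0.45 with a standard error of 0.42 (limma, unadjusted p = 0.314, adjusted p = 0.763), and its 95% interval ran from −1.39 to 0.50, which leaves room for a change of more than 2-fold downward. Without LW119 the log2 fold change was 0.02, and a fit that included carcass weight gave −0.99 (limma, unadjusted p = 0.0956).

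UCP2 is expressed in many tissues and in cells of the immune system, where it is a mitochondrial carrier of metabolites. Its level was 1.18 FPKM in LW63, 0.607 in LW70 and 2.13 in LW119 of the S-H group. It was 1.20 FPKM in LW82, 0.774 in LW88 and 0.848 in LW90 of the S-L group. The S-H group thus held both the lowest pig, LW70, and the highest, LW119. The log2 fold change was 0.30 with a standard error of 0.43 (limma, unadjusted p = 0.499, adjusted p = 0.849), with a 95% interval from −0.65 to 1.25, and it was −0.11 without LW119. The summed level of 14 macrophage and leukocyte markers, led by C1QC, C1QA and TYROBP, was also lowest in LW70 (59.8 FPKM) and highest in LW119 (146.5 FPKM). Of these markers, 9 had their highest level in LW119, but C1QC and C1QA were highest in LW63. C1QC had 47.2 FPKM in LW63 and 29.7 FPKM in LW119. Between the extremes the order of the pigs differed from that of UCP2. LW88 had less UCP2 than LW90 but a higher marker sum (106.5 and 62.3 FPKM). Over the groups the marker sum ran from 59.8 to 146.5 FPKM in S-H and from 62.3 to 106.5 FPKM in S-L, and 1 of the 14 markers was at 0 in all pigs. Fibroblast markers, led by DCN, COL3A1 and COL1A2, showed the same extremes, from 407.2 FPKM in LW70 to 835.0 FPKM in LW119. Their sum in LW63 was nearly as high (827.6 FPKM). Of the 10 fibroblast markers, 7 were highest in LW119, but DCN was highest in LW63 (327.5 FPKM, against 201.9 FPKM in LW119). The part of these cells in the UCP2 level was not tested. In bulk muscle, fewer cells of a type and less RNA per cell cannot be told apart.

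UCP2 and UCP3 are neighbours on chromosome 9 (Sscrofa11.1). In the RefSeq annotation UCP2 spans chr9:8358559-8364552 and UCP3 spans chr9:8378023-8389452, with 13470 bases between them. Their levels differed by 16.7-fold to 180.2-fold within a pig. The ratio of UCP3 to UCP2 was 93.1 in LW63, 133.8 in LW70 and 16.7 in LW119, and 55.3 in LW82, 180.2 in LW88 and 102.4 in LW90. LW119 had the lowest ratio, and the other 5 pigs overlapped between the groups. The mean log2 ratio was lower in S-H (difference −0.77, exact two-sided permutation test, p = 0.6, where 0.10 is the smallest p that 3 pigs against 3 allow). Without LW119 the difference was 0.15.

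The other genes at this locus were far below UCP3. COA4, a mitochondrial assembly factor gene, lay between 4.51 and 12.0 FPKM and PAAF1 between 2.60 and 3.36 FPKM. C2CD3, a gene for a centriole protein on the far side of UCP3, lay between 1.21 and 2.01 FPKM. DNAJB13 was at 0 in 3 pigs and reached at most 0.316 FPKM, below the minimum for the test. A U6 small nuclear RNA gene between UCP2 and UCP3 had between 4.25 and 14.1 FPKM, and like UCP3 it was highest in LW88. None of the tested neighbours passed, with log2 fold changes from −0.0036 for C2CD3 to 0.53 for COA4 (limma, unadjusted p = 0.991 and unadjusted p = 0.125).

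SLN, which encodes sarcolipin, had the narrowest range of the 5 genes, with the highest pig 1.38 times the lowest. It had 230.1 FPKM in LW63, 282.4 in LW70 and 220.0 in LW119 in the S-H group. In the S-L group it had 271.8 FPKM in LW82, 281.7 in LW88 and 303.7 in LW90. LW63 and LW119 were below all S-L pigs, and LW70 lay between the S-L values, so the groups overlapped by 1 pig. The means in FPKM were 244.2 ± 33.5 (SD, n = 3) in the S-H pigs and 285.8 ± 16.3 (SD, n = 3) in the S-L pigs. The log2 fold change was −0.23 with a standard error of 0.24 (limma, unadjusted p = 0.352, adjusted p = 0.782) and a 95% interval from −0.77 to 0.30. After quantile normalization it was −0.45 with an unadjusted limma p of 0.0489 and did not pass the thresholds.

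The calcium pumps that sarcolipin binds are ATP2A1 (SERCA1, the fast-fibre pump) and ATP2A2 (SERCA2, the slow-fibre and heart pump). ATP2A1 had 222.7, 344.6 and 310.9 FPKM in LW63, LW70 and LW119, and 306.4, 347.9 and 702.9 FPKM in LW82, LW88 and LW90. ATP2A2 had 201.0, 198.5 and 129.8 FPKM in the same S-H pigs, and 191.3, 37.7 and 153.3 FPKM in the S-L pigs. The pumps thus varied more between pigs than SLN did, with LW90 high in ATP2A1 and LW88 low in ATP2A2. Neither passed, with log2 fold changes of −0.55 for ATP2A1 and 0.74 for ATP2A2 (limma, unadjusted p = 0.151 and unadjusted p = 0.193). The summed level of the slow-fibre markers was 0.478 to 0.642 times that of the fast-fibre markers in S-H and 0.207 to 0.563 times in S-L. ATP2A1 and ATP2A2 belong to those lists. Of 13 fast-fibre markers 10 were in the table, and the fast myosin heavy chains MYH1, MYH2 and MYH4 were not among them. One fast-fibre marker, TNNI2, ran from 30.6 FPKM in LW82 to 4451 FPKM in LW90. The log2 of this ratio is the slow-fibre share used below, so it has the same limits. The part of fibre type in these values was not tested beyond its use as a covariate.

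SLN per pump was close to equal in the groups. The ratio of SLN to the sum of ATP2A1 and ATP2A2 was 0.543 in LW63, 0.520 in LW70 and 0.499 in LW119. It was 0.546 in LW82, 0.731 in LW88 and 0.355 in LW90. The 3 S-H pigs lay close together and inside the S-L range, whose highest pig was LW88 and lowest LW90. The mean log2 ratios differed by −0.0019 (exact two-sided permutation test, p = 1). The ratio of ATP2A1 to ATP2A2 was 1.11 to 2.40 in S-H and 1.60 to 9.23 among the S-L pigs (exact two-sided permutation test, p = 0.3).

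CKMT2 had the widest range of the 5 genes, with an 8.40-fold difference between the highest and the lowest pig. Its level was 282.7 FPKM in LW63, 480.6 in LW70 and 57.2 in LW119 in the S-H group. It was 267.3 FPKM in LW82, 269.3 in LW88 and 240.7 in LW90 in the S-L group. Both extremes were S-H pigs, and the S-L pigs were close to each other. The means in FPKM were 273.5 ± 211.8 (SD, n = 3) in the S-H pigs and 259.1 ± 15.97 (SD, n = 3) in the S-L pigs. The log2 fold change was −0.38 with a standard error of 0.63 (limma, unadjusted p = 0.554, adjusted p = 0.870), with a 95% interval from −1.79 to 1.02. The FPKM means put S-H slightly above S-L while the log2 fold change was negative, so the direction differed between the linear and the log scale. Without LW119 the log2 fold change was 0.51.

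CKM, the cytosolic creatine kinase of muscle, was the most abundant gene of the creatine list and was not low in LW119. Its level was 1999, 3939 and 2780 FPKM in LW63, LW70 and LW119 and 1985, 2688 and 2652 FPKM in LW82, LW88 and LW90. The ratio of CKMT2 to CKM was 0.141 in LW63, 0.122 in LW70 and 0.0206 in LW119, and 0.135 in LW82, 0.1002 in LW88 and 0.0907 in LW90. LW119 was again far below the other 5 pigs, which overlapped between the groups. The mean log2 ratios differed by −0.60 (exact two-sided permutation test, p = 0.9), and by 0.30 without LW119.

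**Figure D2:**
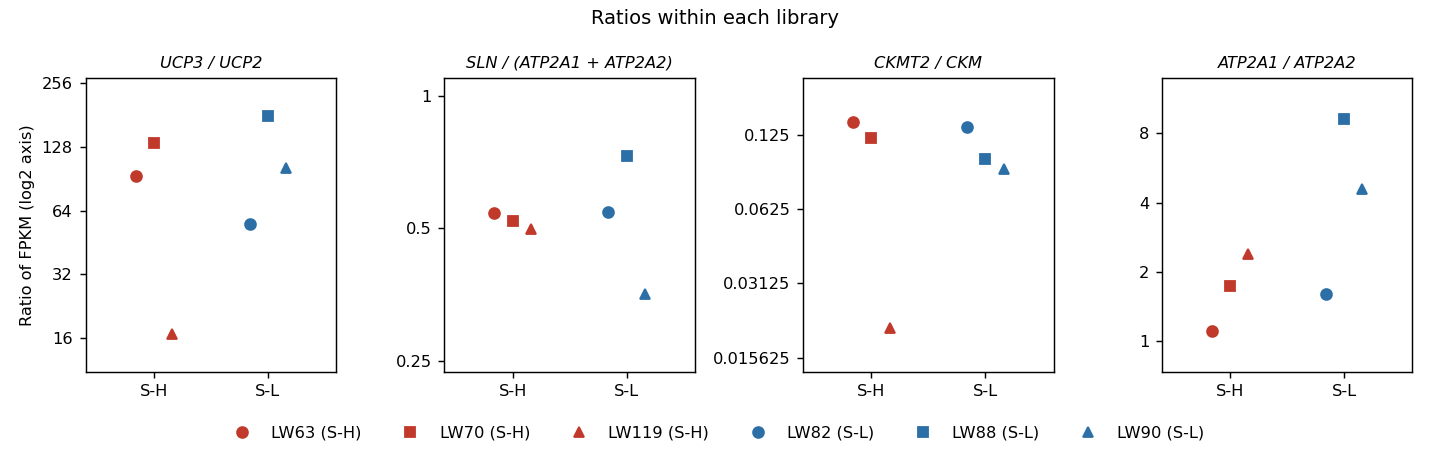
Ratios of FPKM within each library on log2 axes, with 1 point per pig, for UCP3 to UCP2, SLN to the summed SERCA pumps, CKMT2 to CKM and ATP2A1 to ATP2A2. LW119 had the lowest UCP3 to UCP2 ratio (16.7) and the lowest CKMT2 to CKM ratio (0.0206), while its SLN to pump ratio (0.499) lay between those of LW90 and LW70.

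DIO2 had 1.74 FPKM in LW63, 1.50 in LW70 and 1.03 in LW119, and 1.61 in LW82, 2.69 in LW88 and 1.32 in LW90. LW88 was the highest pig and LW119 the lowest, and the other 4 pigs overlapped between the groups. The means in FPKM were 1.43 ± 0.360 (SD, n = 3) in the S-H pigs and 1.88 ± 0.720 (SD, n = 3) in the S-L pigs. The log2 fold change was −0.34 with a standard error of 0.35 (limma, unadjusted p = 0.346, adjusted p = 0.779) and a 95% interval from −1.12 to 0.43.

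**Figure D3:**
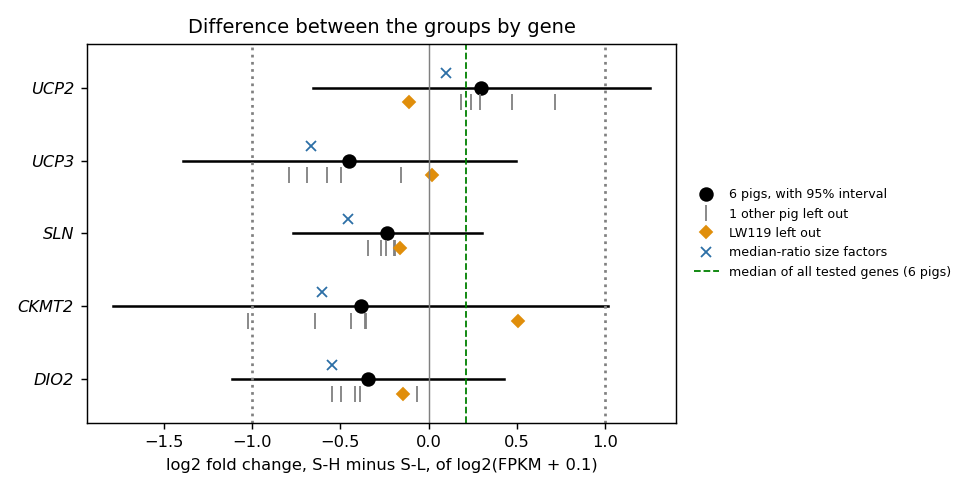
log2 fold change (S-H minus S-L, on log2(FPKM + 0.1)) of each gene with its 95% interval from limma (black), with median-ratio size factors (blue cross), without LW119 (orange diamond) and without each other pig (grey ticks); dotted lines mark the threshold and the dashed line the median of all tested genes. All 5 intervals include 0, and without LW119 the values for UCP2 (−0.11), UCP3 (0.02) and CKMT2 (0.51) change sign.

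Scaling between the libraries moved the values of the 5 genes but not their calls. With median-ratio size factors, which brought the median of all genes from 0.21 to 0.01, the log2 fold changes were 0.10 for UCP2, −0.67 for UCP3, −0.45 for SLN, −0.61 for CKMT2 and −0.55 for DIO2. With TPM they were 0.43, −0.31, −0.10, −0.25 and −0.22 in the same order. Under each of these scalings UCP2 was positive, the other 4 genes were negative, and 0 of 5 genes passed. The calls over all genes changed from 150 higher and 25 lower in S-H to 82 higher and 56 lower with the size factors.

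The transcripts behind the gene values differed in how well they matched the annotation. The 5 genes had 24 transcripts, of which 11 were Ensembl transcripts and 13 were assembled by the authors from these libraries. Of the 17 that reached the minimum, 0 passed the thresholds (limma, against 1.25% of all tested transcripts). The UCP3 value was nearly all one Ensembl transcript, UCP3-202 (99.1% over the 6 pigs), and UCP3-201 was above 0 in LW88 alone, at 4.69 FPKM. CKMT2 was carried by CKMT2-201 (66.6%) and CKMT2-202 (31.3%).

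CKMT2-201 made up a smaller share of the gene in LW119 than in any other pig. Its level was 19.7 FPKM in LW119 and between 145.0 and 357.8 FPKM in the other pigs, and its share of CKMT2 was 34.5% in LW119 and 57.9% to 74.5% in the others. CKMT2-202 had 28.1 FPKM in LW119 and between 67.4 and 121.2 FPKM elsewhere. CKMT2-204 went the other way, with 9.37 FPKM in LW119 and 0.665 to 6.34 FPKM in the others, so the low gene value of LW119 came from the 2 main transcripts.

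For SLN, the Ensembl transcript SLN-201 gave 58.4% of the value, with 123.0 to 181.5 FPKM over the pigs. The rest came from 3 assembled transcripts with the same start and end as SLN-201 (chr9:36232968-36242405). The least abundant of them was at 0 in LW63, LW70 and LW90 and reached 59.0 FPKM in LW82. Single SLN transcripts therefore varied more between pigs than their sum.

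For UCP2, both Ensembl transcripts were listed at 0 in all 6 pigs. Of its value, 70.5% came from 1 assembled transcript over the gene, with 0.431 to 1.76 FPKM and the highest level in LW119. A further 23.5% came from a transcript named UCP2-OT1 at chr9:8311792-8334516, which lies outside the RefSeq span of UCP2 and inside the span that the file gives for PAAF1. Restricted to transcripts over the RefSeq span, UCP2 had 0.854, 0.431 and 1.76 FPKM in LW63, LW70 and LW119 and 0.950, 0.662 and 0.504 in LW82, LW88 and LW90. LW119 stayed the highest pig and LW70 the lowest.

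For DIO2, the single Ensembl transcript gave 4.56% of the value and 7 assembled transcripts gave the rest. Transcripts that overlap the RefSeq span of DIO2 (chr7:103096414-103110749) gave 58.2%, and 4 transcripts began at least 128172 bases beyond its end. Of the overlapping transcripts, only TCONS_00253642 (1.05% of the value) ended near the span, at chr7:103111507. The others ran far past it, to chr7:103323258 or beyond. With only the overlapping transcripts counted, DIO2 had 0.778, 1.17 and 0.949 FPKM in LW63, LW70 and LW119 and 1.30, 1.08 and 0.488 FPKM in LW82, LW88 and LW90. In that setting LW82 was highest and LW90 lowest, and the log2 fold change was 0.09 instead of −0.34. Both the order of the pigs and the direction for DIO2 thus depended on which transcripts were counted.

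**Figure D4:**
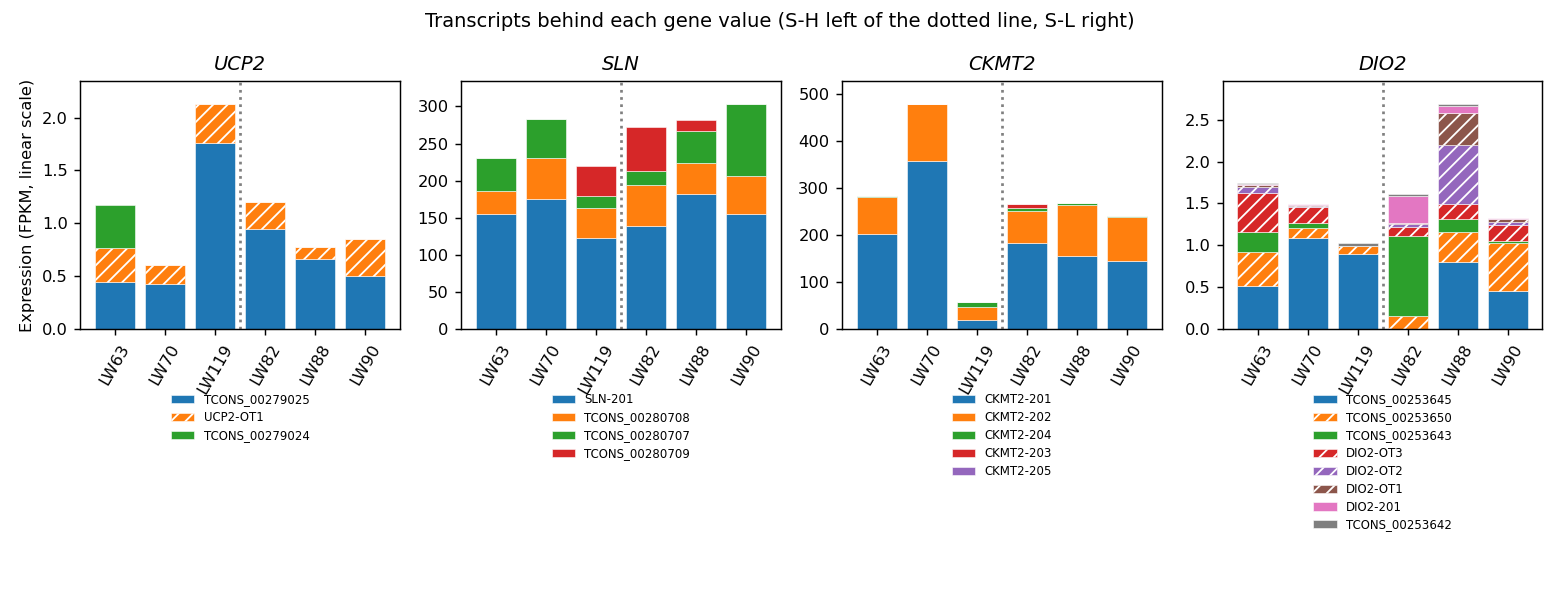
Stacked FPKM (linear scale from 0) of the transcripts of UCP2, SLN, CKMT2 and DIO2 in each pig, S-H left and S-L right of the dotted line; hatched parts are transcripts outside the RefSeq span of the gene. In LW119 CKMT2-201 (blue) had 19.7 FPKM, and 1.61 of the 2.69 FPKM of DIO2 in LW88 were hatched.

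LW119 was the lowest pig for 4 of the 5 genes, UCP3, SLN, CKMT2 and DIO2, whereas it was the lowest for 8.52% of all tested genes. For SLN the next pig was only 1.05 times higher. With only the transcripts over the RefSeq span of DIO2 counted, LW90 was the lowest pig for that gene (0.488 FPKM), and LW119 had 0.949 FPKM. In CKMT2 the next pig was 4.21 times higher, and a gap of at least 2 times above LW119 was found in 0.748% of all tested genes. LW119 was also the lowest for 8 of 17 tested genes that are known to respond to fatty acids in muscle, UCP3 among them. This was not particular to those genes. LW119 was the lowest for 5 of 10 fast-fibre markers and 7 of 16 genes of calcium pumps, their peptides and buffers. For creatine genes the count was 1 of 7, and for slow-fibre markers 0 of 10. The sum of FPKM over all genes was lowest in LW119 (638536) and highest in LW82 (846661), while its median-ratio size factor, 1.15, was the highest. The part of these library differences in the values of LW119 was not tested.

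Correlations between the genes over the 6 pigs were computed for 10 pairs, pooled over both groups. The strongest was between UCP2 and CKMT2 (Pearson's r = −0.89, exact permutation p = 0.0236, adjusted p = 0.144; Spearman's rho = −0.71, exact permutation p = 0.136, adjusted p = 0.454). Without LW70 and LW119, the pigs farthest from the UCP2 median, r was 0.52, so the relation rested on those pigs. UCP3 and DIO2 were positively correlated (r = 0.87, exact permutation p = 0.0417, adjusted p = 0.144; rho = 0.77, exact permutation p = 0.103, adjusted p = 0.454), and r was 0.25 without LW119 and LW88. That correlation used DIO2 summed over all its transcripts. With only the transcripts over its RefSeq span, DIO2 was highest in LW82 and lowest in LW90, while UCP3 was highest in LW88 and lowest in LW119. The correlation was not computed for that DIO2 value. UCP2 and SLN were opposed (r = −0.81, exact permutation p = 0.0431, adjusted p = 0.144; rho = −0.77, exact permutation p = 0.103, adjusted p = 0.454), with r = −0.69 without LW70 and LW119. None of the 10 pairs had an adjusted p below 0.05. As deviations from the group means, r was −0.89, 0.84 and −0.90 for these 3 pairs.

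The genes whose levels followed each gene most closely over the 6 pigs were picked by Pearson's r among 11488 tested genes with a symbol, as a description. They were MAPK4 and SPTAN1 for UCP2 (r = 0.993 and 0.990), LYNX1 and DUSP28 for UCP3 (0.953 and 0.949) and TCF7 and FAXC for SLN (0.985 and 0.983). For CKMT2 they were MRPS18A, a mitochondrial ribosomal protein gene, and NRARP (0.983 and 0.975), and for DIO2 they were IMP3 and LMTK2 (both 0.978). MRPS18A had 3.64 FPKM in LW119 and 7.45 to 10.9 FPKM in the other pigs. MAPK4 (0.0399 to 0.289 FPKM) and TCF7 (0.0853 to 0.304 FPKM) were close to the minimum mean of 0.1 FPKM.

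The wider routes were described with 6 lists of 94 genes in all, of which 83 were in the table and 74 were tested. Of these, 3 genes passed (4.05%, beside 1.36% of all tested genes), 2 higher and 1 lower in S-H (beside 1.17% and 0.195% of all tested genes), and none of the 3 is among the 5 genes above. With carcass weight or the slow-fibre share as a covariate, 0 of the route genes passed, beside 109 and 73 of all 12836 tested genes. The median log2 fold change over the 74 genes was 0.14, beside 0.21 for all tested genes.

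Among uncoupling proteins and related carriers, 0 of 7 tested genes passed, with a median log2 fold change of 0.58. SLC25A4 and SLC25A6 encode adenine nucleotide translocases, which exchange ADP and ATP and can also conduct protons. SLC25A4 had 704.4, 633.5 and 289.9 FPKM in LW63, LW70 and LW119 and 365.8, 364.7 and 584.4 FPKM in LW82, LW88 and LW90. SLC25A6 had 182.5 to 236.6 FPKM in S-H and 93.9 to 177.5 FPKM in S-L, without overlap, with a log2 fold change of 0.69 (limma, unadjusted p = 0.0382, adjusted p = 0.604). It met neither the p threshold nor the fold threshold.

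Among genes of calcium pumps, their peptides and calcium buffers, 0 of 16 tested genes passed, with a median log2 fold change of −0.09. CASQ1, the calcium buffer of fast fibres, had the lowest p of the list. It had 112.3, 125.9 and 81.5 FPKM in LW63, LW70 and LW119 of the S-H group and 165.5, 170.5 and 299.8 FPKM in LW82, LW88 and LW90 of the S-L group, without overlap. Its log2 fold change was −0.96 (limma, unadjusted p = 0.0107, adjusted p = 0.576). It passed in 2 other scalings, at −1.09 with each library divided by its summed FPKM of protein-coding genes and at −1.15 with quantile normalization. Myoregulin (MRLN), another peptide that inhibits SERCA, varied from 10.9 FPKM in LW119 to 68.5 FPKM in LW63, and PPP1R3A, a regulator of glycogen metabolism at the reticulum, from 75.1 FPKM in LW119 to 232.5 FPKM in LW90.

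Among creatine genes, 0 of 7 tested genes passed. SLC6A8, the creatine transporter, had 4.91 to 10.46 FPKM in S-H and 10.49 to 14.2 FPKM in S-L, with a log2 fold change of −0.69 (limma, unadjusted p = 0.0484, adjusted p = 0.607). GAMT, an enzyme of creatine synthesis, had 33.6 to 57.6 FPKM over the pigs and a log2 fold change of −0.09 (limma, unadjusted p = 0.740).

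Among thyroid hormone genes, 2 of 13 tested genes passed, both higher in S-H, beside 1.17% of all tested genes. THRSP, a thyroid hormone responsive gene of fat synthesis, had 9.07, 2.43 and 4.45 FPKM in LW63, LW70 and LW119 and 0.978, 1.24 and 0.258 FPKM in LW82, LW88 and LW90. Its log2 fold change was 2.56 with a standard error of 0.57 (limma, unadjusted p = 0.00115, adjusted p = 0.473). CRYM, which encodes a cytosolic thyroid hormone binding protein, had 0.714 to 0.923 FPKM in S-H and 0.113 to 0.400 FPKM in S-L, with a log2 fold change of 1.35 (limma, unadjusted p = 0.00719, adjusted p = 0.566). CRYM failed the thresholds in 11 of 21 other settings, with a log2 fold change of 0.50 with a pseudocount of 1, 0.99 without LW90 and 1.05 to 1.44 in the rest. THRSP failed in 2 of 22, with a log2 fold change of 1.99 with carcass weight and 1.90 with the slow-fibre share as a covariate. The summed level of 10 adipocyte markers, led by FABP4, GPD1 and ADIPOQ, was also higher in S-H, at 546.2 to 1481 FPKM, than in S-L, at 366.2 to 453.9 FPKM. Of 9 tested markers, 5 were higher in S-H past the thresholds. In the S-H pigs CRYM followed the order of this sum, but LW119 had the lowest sum and more THRSP than LW70. Among the S-L pigs LW88 had the lowest sum but the most THRSP and CRYM. The part of the adipocyte markers in these genes was not tested.

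DIO3, the deiodinase that inactivates thyroid hormone, did not pass. It had 0.846 to 0.985 FPKM in S-H and 0.400 to 0.601 FPKM in S-L, without overlap, and a log2 fold change of 0.75 (limma, unadjusted p = 0.0369, adjusted p = 0.604). DIO1 was at most 0.0116 FPKM and was not tested. SLC16A10, a thyroid hormone transporter, was the most abundant gene of the list and varied from 2.67 FPKM in LW88 to 22.3 FPKM in LW90. The receptor partner RXRA varied little (9.34 to 13.05 FPKM). The coactivator MED1 had 9.65 to 10.4 FPKM in S-H and 11.3 to 13.2 FPKM in S-L, without overlap, as in 14.8% of all tested genes. Its log2 fold change was −0.29 (limma, unadjusted p = 0.213).

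Among adrenergic receptors and regulators of the brown fat programme, 1 of 16 tested genes passed, beside 1.36% of all tested genes. PPARGC1A, the coactivator of mitochondrial biogenesis, was lower in S-H, with 10.01, 22.4 and 15.1 FPKM in LW63, LW70 and LW119 against 25.5, 76.0 and 43.7 FPKM in LW82, LW88 and LW90. Its log2 fold change was −1.54 with a standard error of 0.41 (limma, unadjusted p = 0.00408, adjusted p = 0.533). It did not pass in 6 other settings. In these its log2 fold change was −1.25 without LW63, −1.15 without LW88, −1.54 without LW90 and −1.54 with its most abundant transcript in place of the sum. It was −1.70 with carcass weight as a covariate and −0.62 with the slow-fibre share as a covariate. Its relative PPARGC1B had a log2 fold change of 0.74 (limma, unadjusted p = 0.0381, adjusted p = 0.604), with 2.05 to 2.71 FPKM in S-H and 1.01 to 1.88 FPKM in S-L. The beta-1 adrenergic receptor gene ADRB1 had 0.278 to 1.60 FPKM in S-H and 0.0879 to 0.387 FPKM in S-L (log2 fold change 1.41, limma, unadjusted p = 0.0346, adjusted p = 0.604). Without LW119 it passed, with a log2 fold change of 1.92 (limma, unadjusted p = 0.00568), and without LW63 the value was 0.84 (limma, unadjusted p = 0.161). COX7A1, ESRRA and CEBPB were the most abundant genes of the list, and their log2 fold changes were 0.11, 0.21 and −0.28.

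Among genes that respond to fatty acids with UCP3 in muscle, 0 of 17 tested genes passed, with a median log2 fold change of 0.19. FABP3, the fatty acid binding protein of muscle, had 358.9 FPKM in LW119 and 391.3 to 954.7 FPKM in the others. PDK4, which restrains glucose oxidation, ranged from 171.9 FPKM in LW82 to 866.4 FPKM in LW90, and TXNIP from 342.5 to 649.4 FPKM. Their log2 fold changes were 0.16, 0.13 and 0.26.

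**Figure D5:**
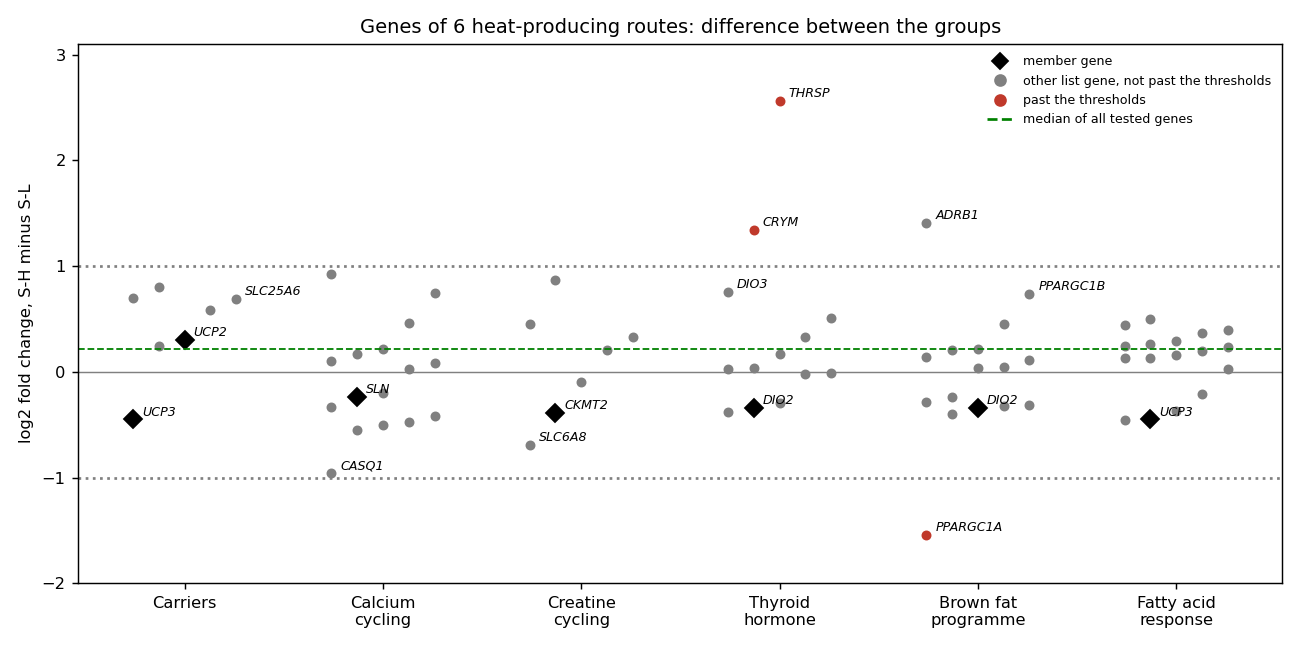
log2 fold change (S-H minus S-L) of each tested gene in the 6 lists, with the 5 genes of the report as black diamonds, genes past the thresholds in red, the median of all tested genes as a dashed line and the fold threshold as dotted lines; names are given for the 5 genes and for genes at an unadjusted p below 0.05. DIO2 and UCP3 belong to 2 lists each, and THRSP, CRYM and PPARGC1A are the genes past the thresholds.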

How the data were processed

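LD muscle RNA of 6 pigs was sequenced, with 1 library per pig. The authors mapped filtered reads to Sscrofa11.1 by HISAT2, and StringTie served for assembly and quantification (versions not given in the sources used here). They deposited FPKM values per transcript, except that Ensembl transcripts without a symbol (21104 of 83119) appear to be in TPM. This was inferred from a match to the gene values of the study, and those transcripts were multiplied by 1 factor per pig. No counts were used, so the depth behind a value is unknown and precision is given by the spread between pigs. No scaling between libraries was added.

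FPKM was summed per gene. Gene types were taken from RefSeq (Sscrofa11.1), by symbol or by a reciprocal overlap of at least 50%. Genes with a mean of at least 0.1 FPKM were fitted on log2(FPKM + 0.1) with limma 3.58.1 (variance trend) in R 4.3.3, S-H against S-L, with Benjamini-Hochberg adjustment over all tested genes (the study used another test), and fold changes are on that scale. Ratios and correlations were tested by exact permutation in Python 3.11.15 with scipy 1.17.1. The fit was tested on simulated data.

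The genes and lists were chosen with earlier results of these data known. Named were the members, their transcripts, the genes beside UCP2 and UCP3, the 2 genes most like each member, ATP2A1, ATP2A2 and CKM, and the 3 marker genes of highest mean, and from each route list the 3 genes of highest mean and those at an unadjusted p below 0.05. MRLN, C4orf3, DIO1 and the totals of marker lists were added after their values were seen. The alternatives were other pseudocounts, minimums, scalings, gene sets, covariates and transcript choices, and the omission of single pigs.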

Additional observations from a re-analysis of the deposited data

How the results depend on the processing

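None of the 5 genes passed the thresholds in any of 22 other settings, and 0 member transcripts passed in any of 9. Members had an unadjusted p below 0.05 in 1 setting, quantile normalization (SLN). The log2 fold change of DIO2 turned from −0.34 to 1.29 with the transcript of highest mean, which is at 0 in LW82. It turned to 0.089 with the transcripts that overlap the RefSeq span. With the slow-fibre share as a covariate, UCP2 was −0.27 and UCP3 0.089, and with carcass weight UCP3 was −0.99, CKMT2 −0.11 and DIO2 −0.60. The SLN to pump log2 difference was 0.15 with Ensembl transcripts and 0.18 with the transcript of highest mean. With each pig left out in turn, UCP2 ranged from −0.11 to 0.72, UCP3 from −0.79 to 0.020, CKMT2 from −1.02 to 0.51, the UCP3 to UCP2 log2 ratio from −1.35 to 0.15, SLN to pumps from −0.28 to 0.24 and CKMT2 to CKM from −1.09 to 0.30. The correlation of UCP2 and SLN was −0.56 with median-ratio size factors. For UCP2, UCP3, CKMT2 and their ratios, the change of sign came without LW119. The count of route genes past the thresholds was 0 to 3 over 22 other settings. It was 0 with carcass weight and 0 with the slow-fibre share as a covariate, 1 with the transcript of highest mean, and 1 to 3 with a pig left out (1 without LW63 or LW90). Beside 175 genes past the thresholds, 78 passed with a pseudocount of 1, 117 with a minimum mean of 1 FPKM, 264 with TPM, 109 with carcass weight and 73 with the slow-fibre share. Leaving out 1 pig gave 88 (without LW90) to 263 genes (without LW82). Median-ratio size factors changed the split of higher to lower calls from 150 to 25 into 82 to 56, and quantile normalization into 70 to 63. UCP2 and DIO2 gave no value with Ensembl transcripts alone, UCP2 because these are at 0 and DIO2 because they are below the minimum. No paired analysis was possible because the 2 groups hold different pigs, and no number in the labels pairs them. The slow-fibre share, the RefSeq span, the values exactly as deposited and, for route genes, settings other than a pseudocount of 1, size factors and left-out pigs were alternatives chosen after seeing the data. Ratios with PLN were not run.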
